A study of Mus musculus with 6 samples.

Results

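The genes of the mitochondrial ribosome were followed in megakaryocytes, the large polyploid marrow cells that shed platelets. Members were all array rows whose only platform gene symbol starts with Mrpl or Mrps and a digit, with pseudogene symbols (-ps) left out. This gave 74 genes, each with 1 row, out of 30063 genes measured, and 46 of them carry an Mrpl name and 28 an Mrps name. Mrpl30, Mrpl53 and Mrps6 lie on rows that also name another gene and were not analysed here. The cells came from the bone marrow of female C57 mice, either healthy (control, 3 arrays) or with acute myeloid leukaemia (AML) induced by the fusion oncogene MLL-AF9 (3 arrays). In both groups they were gated by flow cytometry on high side scatter, high CD41 and a DNA content of 8N or above, and sorted directly into Trizol. Within a group the arrays are labelled as biological replicates 1 to 3. How MLL-AF9 was introduced, the age of the mice and any pooling of animals are not given in the labels, so a p-value here reflects only how far these 6 samples varied.

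Mitochondria keep a small genome of their own whose protein products, all parts of the respiratory chain and the ATP synthase, are made by a dedicated ribosome. Its RNA comes from mitochondrial DNA, but every ribosomal protein is encoded in the nucleus, made in the cytosol and imported. The large subunit (Mrpl genes) holds the site of peptide bond formation and the tunnel through which the new chain leaves. The small subunit (Mrps genes) holds the site where the codon is read. Some of the proteins descend from bacterial ribosomal proteins and others exist only in mitochondria. Mrps18a and Mrps30 are named for the small subunit but sit in the large subunit in structures of the mammalian particle, so they were counted there, which gave 48 large and 26 small subunit genes. Mrps36 kept its name here although its product is now assigned to the alpha-ketoglutarate dehydrogenase complex.

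Values are deposited log2 expression levels, differences are AML minus control, ± gives the SD (n = 3 per group), and adjusted p-values are from limma's moderated test with Benjamini-Hochberg adjustment over all 30063 genes. The mean levels of the 74 genes lay between 5.15 and 8.86. Olfactory and vomeronasal receptor genes, which a marrow cell is not known to use, gave a reference for dim rows: 95% of 1528 such genes lay at or below 5.51. Of the mitoribosomal genes 72 stood above that level, and Mrpl33 (5.15) and Mrpl35 (5.37) did not. Levels of different genes depend on their probes, so this reference is a rough one and an order of genes by level is no order of RNA amounts.

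In the deposited values, mitoribosomal genes had slightly higher levels in AML at the median, by little more than the array as a whole, and how much more depended on the scaling. Of the 74 genes, 5 rose and 0 fell past an adjusted p of 0.05. Over all genes, 4.49% rose and 6.25% fell, so the share that rose, 6.76%, was near the background. Among genes at or above the median level, 5.09% rose and 11.2% fell in the same fit. At an unadjusted p under 0.05, 22 of the 74 were higher (29.7%) and 0 lower, against 21.0% and 11.8% of all genes. For genes at or above the median level these shares were 18.9% and 20.4%. The median difference over the 74 genes was +0.14, against +0.11 over all genes, which put them +0.03 relative to the array. That relative median turned to -0.018 without AML array 1 and to -0.015 without control array 1. It was +0.23 after quantile normalization, +0.19 after cyclic loess and +0.11 among genes at or above the median level. Differences ran from -0.16 to +0.49 and were above 0 in 53 genes (71.6%, against 68.8% of all genes) and below 0 in 21. Relative to the median over all genes, 43 lay above and 31 below. The changes were small: 0 of the 74 genes rose or fell 1.5-fold or more past the threshold. For 70 genes the 95% confidence interval lay wholly inside a 1.5-fold change in either direction, and for 4 it reached that size.

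The calls of the 5 rises depended on single arrays, while their differences stayed above 0 in every removal. With any 1 of AML 1, AML 2, control 2 and control 3 left out, 0 genes passed, against 2 genes without control array 1 (Mrpl17 and Mrpl49), and 11 without AML array 3. Over all genes the same removals gave between 185 and 1639 higher calls, against 1350 with every array kept. Most removals thus cost calls across the array, not only among the members. Scaling mattered as much. After median centring of the arrays, which lowered the median over all genes by 0.12 to -0.014, only Mrpl17 kept its call. After renewed quantile normalization 22 rose (29.7%, against 4.6% of all genes) and 1 fell, and after cyclic loess 16 rose (21.6%, against 4.09%) and 1 fell, and the gene that fell was Mrpl33 each time. Over all genes the split of 1350 higher and 1880 lower became 505 and 2712 under median centring, 1384 and 2100 under quantile normalization and 1231 and 2367 under cyclic loess.

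**Figure D1:**
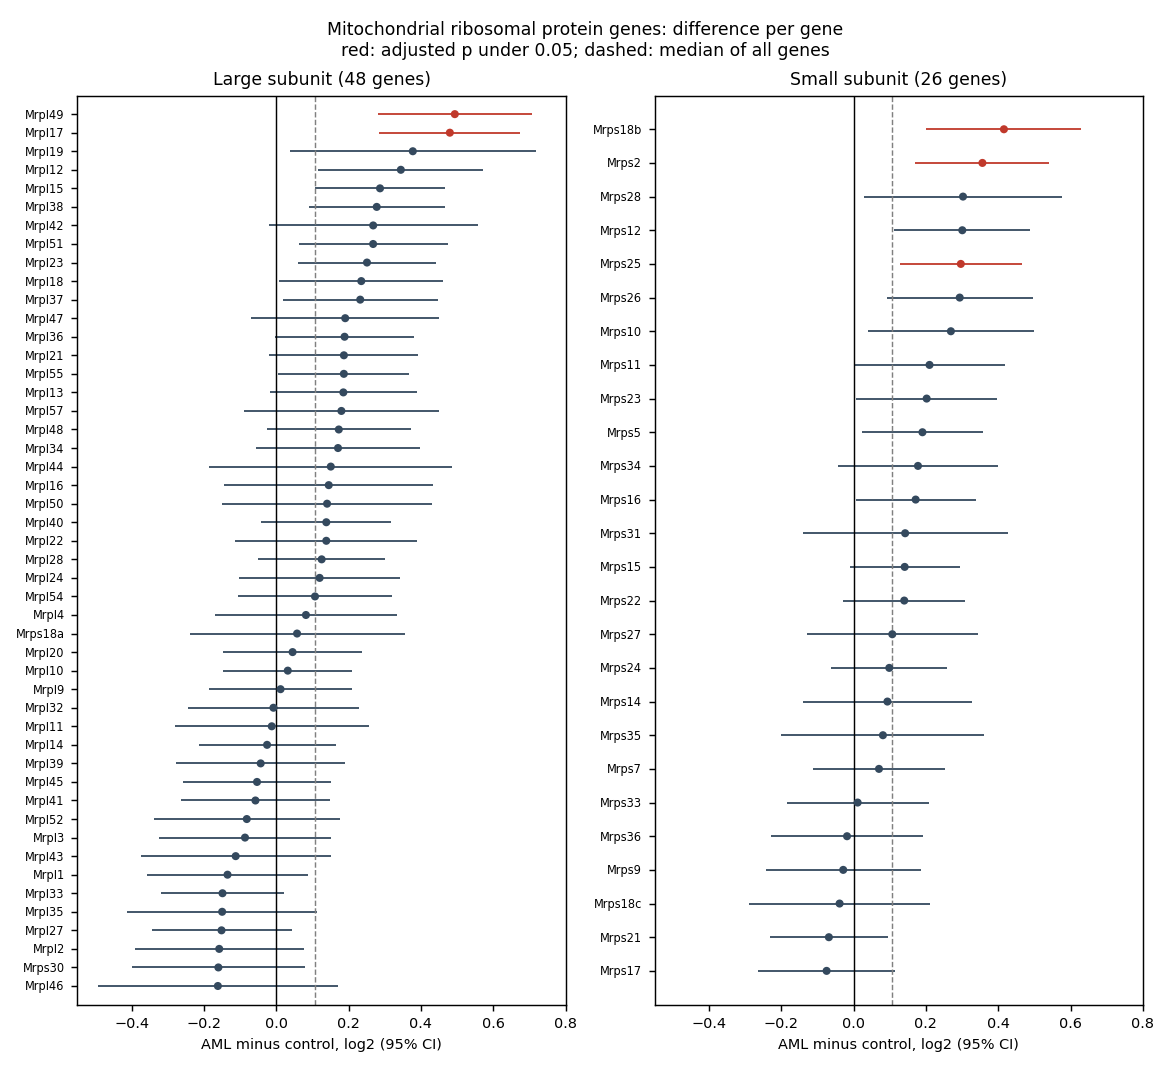
Difference between AML and control (x axis, log2) for each of the 74 genes, large subunit on the left and small subunit on the right, with 95% confidence intervals from limma; the dashed line marks the median over all genes, +0.11. The 5 red genes passed an adjusted p of 0.05, and the intervals of 52 genes span 0.

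Mrpl17, the counterpart of bacterial protein L17 in the large subunit, had the smallest p. It stood at 6.77, 6.73 and 6.54 on AML arrays 1, 2 and 3 and at 6.19, 6.18 and 6.23 on the control arrays. All AML values lay above all control values, with AML array 3 nearest to them. The rise was 1.39-fold, from 6.20 ± 0.03 to 6.68 ± 0.12, a difference of +0.48 (SE 0.083, 95% CI 0.28 to 0.68, adjusted p = 0.016).

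Mrpl49, a large subunit protein without a bacterial counterpart, read 7.84, 7.90 and 7.62 in AML and 7.30, 7.28 and 7.30 in control. The control arrays were nearly identical and AML array 3 was again the lowest of its group. It rose 1.41-fold, by +0.49 (95% CI 0.28 to 0.71, adjusted p = 0.019). Mrps18b, 1 of 3 mammalian relatives of bacterial S18, read 7.11, 7.31 and 7.03 in AML and 6.78, 6.73 and 6.70 in control. Its groups did not overlap, and the rise was 1.33-fold, or +0.42 (95% CI 0.20 to 0.63, adjusted p = 0.0331). A further row names Mrps18b together with Gm16279 and was not used.

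Mrps2, the counterpart of bacterial S2, read 7.35, 7.31 and 7.24 in AML and 6.87, 7.05 and 6.92 in control. The lowest AML value exceeded the highest control value, and the rise was +0.36 (95% CI 0.17 to 0.54, adjusted p = 0.034). Mrps25, a small subunit protein found only in mitochondria, read 6.13, 6.20 and 6.26 in AML against 5.87, 5.87 and 5.96 in control. Here AML array 3 was the highest of its group, and the rise was the smallest of the 5 at +0.30 (95% CI 0.13 to 0.47, adjusted p = 0.0446). Over 16 alternative settings the highest adjusted p was 0.0798 for Mrpl17, 0.088 for Mrpl49, 0.125 for Mrps18b, 0.149 for Mrps2 and 0.204 for Mrps25, while all 5 differences stayed above 0.

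The stretches before the start sites of these 5 genes are shown because promoters of nuclear genes for mitochondrial proteins often carry sites for NRF1, for ETS factors such as GABP, and for YY1. Mrps12, which shares its promoter with a mitochondrial tRNA synthetase gene, and Mrpl33 are added. Mrpl33 had the smallest p among the 21 members with a difference below 0, but did not pass the threshold (adjusted p = 0.192). Sequences are from RefSeq (build GRCm38.p6), read 5′ to 3′ on the gene's strand and ending at the base before the start. Capitals mark CCGGAAG (ETS), GCGCATGC (NRF1 core), ATGGCGG (YY1 core), CACGTG (E-box) or CCAAT, on either strand. The stretch of Mrpl49 and of Mrps12 ends where the neighbouring gene starts. The coordinates are chr7:105811088-105811337 (Mrpl17, minus strand), chr19:6057756-6057946 (Mrpl49, minus), chr17:35916441-35916690 (Mrps18b, minus), chr2:28467816-28468065 (Mrps2, plus), chr6:92184024-92184273 (Mrps25, minus), chr7:28741822-28741967 (Mrps12, minus) and chr5:31613701-31613950 (Mrpl33, plus).
Mrpl17: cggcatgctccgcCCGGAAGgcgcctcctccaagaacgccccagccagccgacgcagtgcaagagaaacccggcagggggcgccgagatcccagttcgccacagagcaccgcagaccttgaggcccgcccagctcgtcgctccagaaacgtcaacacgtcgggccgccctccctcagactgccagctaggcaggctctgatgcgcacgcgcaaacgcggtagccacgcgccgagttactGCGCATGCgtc
Mrpl49: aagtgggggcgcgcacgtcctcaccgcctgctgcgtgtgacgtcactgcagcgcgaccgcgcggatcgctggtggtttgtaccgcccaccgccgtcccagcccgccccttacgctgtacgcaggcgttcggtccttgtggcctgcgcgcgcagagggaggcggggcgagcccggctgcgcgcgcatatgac
Mrps18b: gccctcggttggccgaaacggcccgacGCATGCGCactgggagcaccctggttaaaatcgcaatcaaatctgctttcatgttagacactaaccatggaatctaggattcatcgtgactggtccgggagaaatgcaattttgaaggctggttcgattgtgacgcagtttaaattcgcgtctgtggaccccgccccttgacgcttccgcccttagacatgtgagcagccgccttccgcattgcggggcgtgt
Mrps2: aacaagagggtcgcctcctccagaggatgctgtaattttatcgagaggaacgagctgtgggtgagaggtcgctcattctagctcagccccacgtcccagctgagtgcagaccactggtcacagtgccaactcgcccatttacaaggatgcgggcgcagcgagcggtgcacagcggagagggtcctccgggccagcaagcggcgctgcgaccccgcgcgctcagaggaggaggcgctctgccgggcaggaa
Mrps25: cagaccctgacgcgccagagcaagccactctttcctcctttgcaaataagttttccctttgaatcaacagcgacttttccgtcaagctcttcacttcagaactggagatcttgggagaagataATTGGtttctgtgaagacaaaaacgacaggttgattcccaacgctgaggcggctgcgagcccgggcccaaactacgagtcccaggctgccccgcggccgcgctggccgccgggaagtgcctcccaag
Mrps12: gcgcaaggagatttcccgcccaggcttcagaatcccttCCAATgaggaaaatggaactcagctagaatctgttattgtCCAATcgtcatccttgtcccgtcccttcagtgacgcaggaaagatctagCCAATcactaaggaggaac
Mrpl33: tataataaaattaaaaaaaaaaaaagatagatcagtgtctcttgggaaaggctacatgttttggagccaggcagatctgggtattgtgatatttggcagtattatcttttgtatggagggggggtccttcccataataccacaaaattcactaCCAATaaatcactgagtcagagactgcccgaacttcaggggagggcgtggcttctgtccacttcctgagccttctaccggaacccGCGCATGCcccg

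The NRF1 core lay 11 bases before the start of Mrpl17, which also held the ETS letters 237 bases before it, and 12 bases before the start of Mrpl33. In Mrps18b it lay 223 bases before the start, on the reverse strand. The table held 71 windows, from 250 bases before to 50 after the start, for 65 of the 74 genes. The ETS letters were in 33.8% of them against 8.86% of all 32851 windows of that length, the NRF1 core in 11.3% against 2.71% and the YY1 core in 16.9% against 4.05%. The E-box was in 9.86% against 7.15% and CCAAT in 40.8% against 37.4%. Among the 21262 windows of protein-coding genes the shares were higher, in the same order 11.6%, 3.51%, 5.24%, 7.84% and 38.2%. A match is a run of letters, not a shown binding site, and none of the 5 motifs contains another.

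Members with and without the letters were then set side by side. The median difference was +0.16 in the 24 genes with the ETS letters and +0.12 in the 41 without. It was +0.022 in the 8 genes with the NRF1 core and +0.14 in the 57 without, and +0.12 in the 12 with the YY1 core against +0.14 in the 53 without. For the E-box it was +0.045 in 5 genes with it and +0.14 in 60 without, and for CCAAT +0.091 in 26 and +0.14 in 39. Of the 5 genes that rose, 2 held the ETS letters, 2 the NRF1 core and 1 the YY1 core somewhere in their windows. These medians are descriptions and were not tested.

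A second tier lay just outside the threshold. Mrpl15, the counterpart of bacterial L15, read 6.99, 7.02 and 6.96 in AML and 6.70, 6.62 and 6.80 in control (+0.29, adjusted p = 0.0564). Mrps12, the S12 counterpart beside the site where codons are read, stood at 8.35, 8.25 and 8.19 in AML and 7.91, 7.93 and 8.05 in control (+0.30, adjusted p = 0.0566). Neither pair of groups overlapped. Mrpl12, the counterpart of the bacterial stalk protein L7/L12, which recruits translation factors and has been reported to bind mitochondrial RNA polymerase, read 6.15 ± 0.13 against 5.81 ± 0.10, also without overlap (+0.34, adjusted p = 0.0648). Mrpl38, a protein of the central protuberance, stood at 7.20 ± 0.11 against 6.92 ± 0.03 (+0.28, adjusted p = 0.068), and Mrps26 at 7.04 ± 0.08 against 6.75 ± 0.11 (+0.29, adjusted p = 0.0702). These 5 passed upward in between 4 and 6 of 16 alternatives, among them array weights.

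In 23 of the 74 genes (31.1%) all AML values lay above all control values, against 28.2% of all genes, and in 2 genes (2.70%) they lay below, against 13.1%. The first share was near the background over all genes. Among the genes at or above the median level, which hold 73 of the 74 members, the shares were 23.3% and 22.3%. After median centring the counts were 5 higher and 6 lower, against 10.2% and 20.6% of all genes. The 2 separated lower genes were Mrpl33 and Mrpl27. Mrpl33, the counterpart of bacterial L33, read 5.06, 5.17 and 5.01 in AML and 5.23, 5.25 and 5.21 in control, a difference of -0.15 (adjusted p = 0.192) at a level not above that of the receptor genes. Mrpl27, whose bacterial relative reaches into the peptidyl transferase centre, read 7.39, 7.28 and 7.21 against 7.40, 7.39 and 7.53, or -0.15 (adjusted p = 0.229), and the groups all but touched.

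The next lower genes overlapped between groups. Mrpl2, a core protein of the peptidyl transferase region, stood at 8.02 ± 0.11 against 8.18 ± 0.14 (adjusted p = 0.285), and Mrps30 at 5.67 ± 0.10 against 5.83 ± 0.16 (adjusted p = 0.289). Mrpl1 and Mrpl35 stood at -0.14 and -0.15 (adjusted p = 0.328 and 0.355). In each case control array 3 gave the highest value of its group.

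The subunits were counted separately. In the large subunit 2 of 48 genes rose (4.17%) and in the small subunit 3 of 26 (11.5%), and 0 fell in either. The median difference was +0.13 in the large and +0.14 in the small subunit. Differences were above 0 in 32 of 48 large (66.7%) and 21 of 26 small subunit genes (80.8%), against 68.8% of all genes. The AML values lay wholly above control in 10 of 48 (20.8%) and 13 of 26 (50%), against the 28.2% given above. The difference between subunits was not tested. By the structure-based names, which give a bacterial number only to the direct counterpart and so class Mrps18c but not its relatives Mrps18a and Mrps18b with S18, 2 of the 44 genes with a bacterial counterpart rose and 3 of the 30 without, and the medians were +0.13 and +0.14.

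Around the peptidyl transferase centre and the core, Mrpl3 read 6.79 ± 0.06 against 6.88 ± 0.17 (95% CI of the difference -0.32 to 0.15) and Mrpl4 read 7.04 ± 0.11 against 6.96 ± 0.16 (95% CI -0.17 to 0.33). At the stalk base, Mrpl10, which anchors the Mrpl12 copies, read 6.63, 6.53 and 6.52 in AML and 6.44, 6.59 and 6.55 in control. Its difference of +0.03 (95% CI -0.15 to 0.21) was smaller than that of Mrpl12, without a test between them. Mrpl11, the L11 counterpart beside it, stood at -0.01 (95% CI -0.28 to 0.26).

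Genes of proteins around the tunnel exit differed by +0.25 for Mrpl23 (7.15 ± 0.09 against 6.90 ± 0.08, adjusted p = 0.0891) and +0.12 for Mrpl24 (8.31 ± 0.16 against 8.19 ± 0.02, adjusted p = 0.384). Mrpl45, which tethers the ribosome to the inner membrane near the tunnel exit, read 6.76, 6.74 and 6.80 in AML and 6.80, 6.70 and 6.97 in control (-0.05, 95% CI -0.26 to 0.15). Mrpl44, related to ribonuclease III, read 6.22, 6.08 and 5.66 against 5.81, 5.89 and 5.81. AML array 3 was the lowest of all 6 there, and the pooled SD, 0.21, was among the 3 largest of the 74 genes. The other 2 were Mrpl19 (0.21; +0.38, adjusted p = 0.126) and Mrpl46 (0.20; -0.16, adjusted p = 0.426). In Mrpl19 and Mrpl46 control array 3 exceeded the other controls and AML array 3 lay below the other AML arrays.

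In the small subunit, Mrps5 read 6.28, 6.26 and 6.14 against 6.03, 6.03 and 6.05 (+0.19, adjusted p = 0.121), and Mrps7 read 6.57 ± 0.09 against 6.50 ± 0.06 (+0.07, adjusted p = 0.529). Mrps16, Mrps22 and Mrps34 are genes whose loss impairs mitochondrial protein synthesis in human inherited disease. Mrps16 read 8.13, 8.18 and 8.13 in AML and 7.91, 7.98 and 8.04 in control, and its groups did not overlap, yet it missed the threshold (+0.17, adjusted p = 0.144). Mrps22 (+0.14, adjusted p = 0.209) was separated as well, and Mrps34 (+0.18, adjusted p = 0.219) was not. Mrps27, a pentatricopeptide repeat protein, read 5.64 ± 0.18 against 5.54 ± 0.01 (adjusted p = 0.459).

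The 3 relatives of bacterial S18 occupy different places in the particle. While Mrps18b rose by +0.42, Mrps18a read 7.15, 7.18 and 6.73 in AML and 6.93, 6.96 and 6.99 in control (+0.06, 95% CI -0.24 to 0.35). Mrps18c read 8.83, 8.91 and 8.63 against 8.79, 8.72 and 8.98 (-0.04, 95% CI -0.29 to 0.21, and above 0 under array weights, quantile normalization and cyclic loess). The intervals of Mrps18a and Mrps18b overlap, and a difference between the 3 genes was not tested. Like Mrps18c, Mrpl42 (+0.27, adjusted p = 0.174), Mrpl21 (+0.19, adjusted p = 0.181), Mrpl24 and Mrpl39 (-0.04, adjusted p = 0.765) gave strong signals on their own probes, and none of these 5 passed. Mrpl39 too lay above 0 under array weights, quantile normalization and cyclic loess, and Mrpl24 lay just below 0 under median centring.

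The members moved together from array to array within a group. AML array 3 gave the lowest AML value in 59 of the 74 genes (79.7%), against 57.0% of the 15032 genes at or above the median level and 40.5% of all genes. Control array 3 gave the highest control value in 64 of 74 (86.5%), against 47.3% and 36.1%. Measured from each gene's control mean, the median of the 74 genes was +0.18, +0.17 and +0.030 on AML arrays 1, 2 and 3 and -0.053, -0.044 and +0.094 on the control arrays. By this measure control array 3 stood above AML array 3, but the members' median level was 6.93 on control array 3 and 6.95 on AML array 3. For all genes the medians measured from the control mean ran from +0.081 to +0.10 on the AML arrays and from -0.017 to +0.013 on the controls. The cause of the array differences was not tested.

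**Figure D2:**
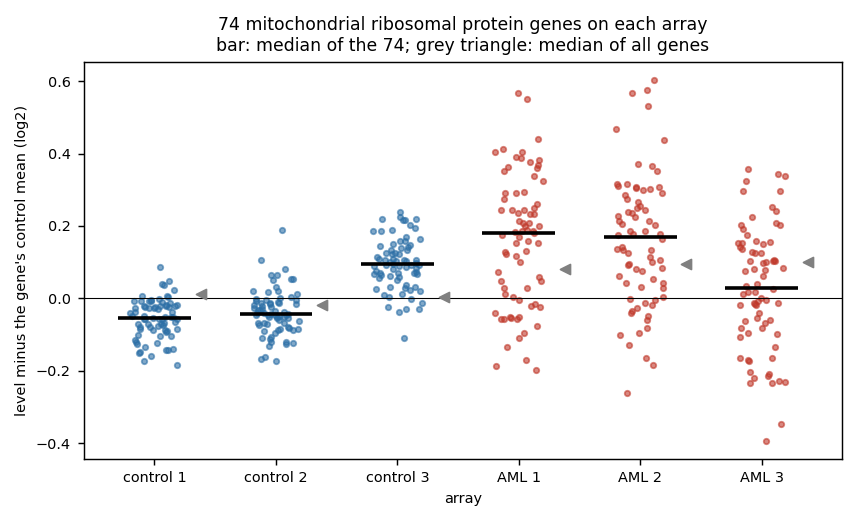
Level of each of the 74 genes on each array (x axis) minus that gene's mean over the control arrays (y axis, log2); black bars are medians of the 74 and grey triangles medians of all genes. The members' median on control array 3, +0.094, lies above that on AML array 3, +0.030.

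The position of the members within each array's own ranking was followed next, each gene against itself. The median percentile of the 74 genes among all genes was 83.8, 84.3 and 84.0 on AML arrays 1, 2 and 3 and 80.9, 80.3 and 81.3 on the control arrays. The mean percentile was higher in AML for 65 genes (87.8%, against 52.5% of all genes) and lower for 9. AML percentiles lay wholly above control percentiles in 43 genes (58.1%) and wholly below in 2 (2.70%), against 17.1% and 16.6% of all genes. Among the genes at or above the median level these shares were 24.7% and 21.0%. The difference between members and other genes was not tested. A rank rises where other genes at that level fall. Among the 2591 genes with mean levels from 7 to 8, differences had a median of -0.083, and 18.6% of them fell, while the 23 members there had a median of +0.14. From 6 to 7 the medians were +0.0076 over 4970 genes and +0.14 over 32 members, and from 8 to 9 they were -0.091 over 1134 genes and +0.17 over 9 members. From 5 to 6 the order turned, with +0.12 over 6947 genes and -0.033 over 10 members.

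**Figure D3:**
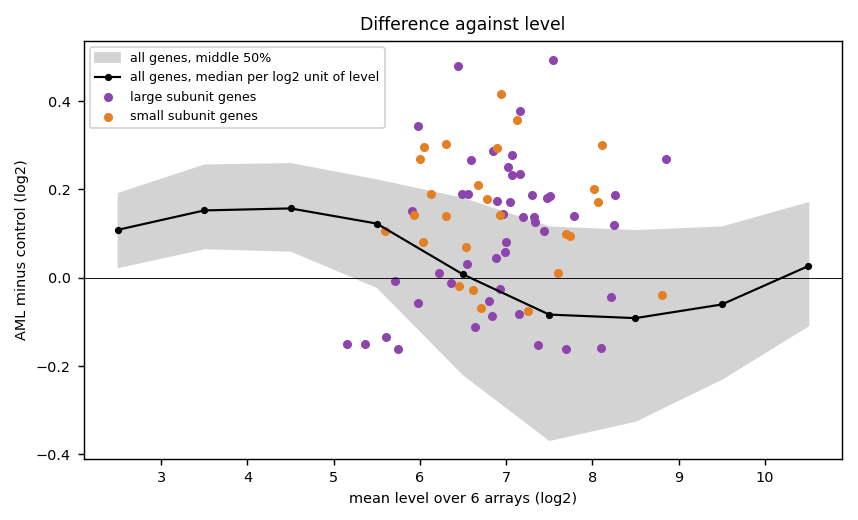
Difference between AML and control (y axis, log2) against mean level over the 6 arrays (x axis, log2) for the large and small subunit genes, with the median (line) and middle 50% (grey) of all genes in steps of 1 log2 unit. Between levels 7 and 8 the all-gene median was -0.083 and the members' median +0.14.

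**Figure D4:**
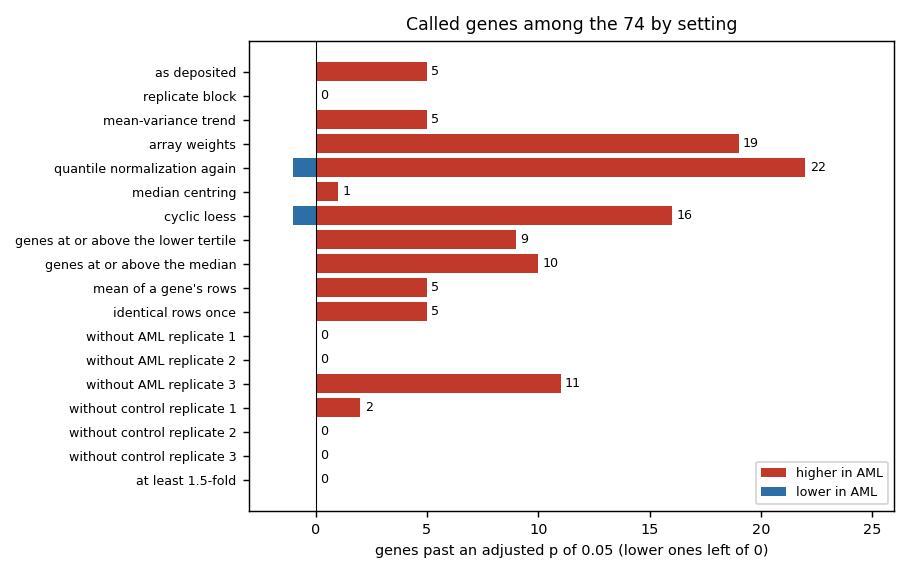
Number of the 74 genes past an adjusted p of 0.05 (x axis; lower ones to the left of 0) in the deposited values and under each alternative setting (y axis). The count ranges from 0 to 22 higher and from 0 to 1 lower.

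Lists of genes that serve the mitochondrial ribosome were set against the 4.49% of all genes that rose and the 6.25% that fell. The shares that rose were 6.45% for assembly genes, 5.26% for tRNA synthetases, 5.88% for mitochondrial DNA transcription and 5.56% for import, near that background. Of 5 subunit genes with other names (Dap3, Ptcd3, Chchd1, Gadd45gip1 and Mrpl58, listed on the platform as Ict1), 0 passed, with differences from +0.016 to +0.18. Of 21 genes for initiation, elongation, termination and activation of mitochondrial translation, 0 passed, with a median of +0.13. The smallest p belonged to Mtfmt, which formylates the initiator tRNA (6.61 ± 0.15 against 6.26 ± 0.09, adjusted p = 0.0636). Of 31 ribosome assembly and rRNA modification genes, 2 rose and 0 fell. Mtg1, a GTPase of large subunit assembly, rose from 5.54 ± 0.02 to 6.01 ± 0.06 (+0.48, adjusted p = 0.00803). Its call held without any single array and under all 3 scalings, but not with the replicate number as a block (adjusted p = 0.0543). Clpp, a matrix protease subunit, rose by +0.42 (adjusted p = 0.0232).

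Of 19 mitochondrial tRNA synthetase and amidotransferase genes, 1 rose, Pars2 for proline (+0.33, adjusted p = 0.0328), and 0 fell. Of 17 genes of mitochondrial DNA transcription and RNA processing, 1 rose and 0 fell: Tefm, the elongation factor of mitochondrial RNA polymerase (+0.45, adjusted p = 0.0161). The call of Tefm was lost without AML array 2 or control array 2 and with the replicate number as a block. Of 18 import and folding genes 1 rose, Timm17a of the inner membrane translocase (+0.32, adjusted p = 0.0491). The calls of Clpp, Pars2 and Timm17a needed AML 1, AML 2 and each of the controls, and they were lost under median centring, with adjusted p up to 0.215 over the alternatives. That of Pars2 was lost under quantile normalization and cyclic loess too, and that of Timm17a with a mean-variance trend.

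Among 13 regulators of nuclear genes for mitochondrial proteins, 2 rose and 1 fell. Myc, a transcription factor that drives ribosome and mitochondrial biogenesis genes, stood at 8.14 ± 0.49 against 7.23 ± 0.04 (+0.91, adjusted p = 0.0454), and the coactivator Pprc1 at 6.51 ± 0.15 against 6.10 ± 0.06 (+0.41, adjusted p = 0.0381). Both calls likewise needed every array but AML 3 and were lost under median centring. Gabpb1, the partner subunit of the ETS factor GABPA, fell by 0.43 (adjusted p = 0.0178). That call ended when AML 2, control 2 or control 3 was left out and with the replicate number as a block. Of 7 measured mitochondrial DNA genes, 0 passed, and AML arrays 1, 2 and 3 had medians of 9.98, 9.94 and 11.25 for them, against 10.03 to 10.58 on the control arrays. AML array 3, the lowest of its group for the nuclear mitoribosomal genes, was thus the highest for these. Without it 2 of the 7, ND2 and mt-Tk, fell (-0.50 and -0.84, adjusted p = 0.023 and 0.0434), against 6.54% of all genes. The median difference then went from -0.062 to -0.40. With any other single array left out, 0 of the 7 fell and the median ran from -0.16 to +0.014. Of 43 cytosolic ribosomal protein genes, 2 rose and 0 fell. Their median difference was +0.12 and just below 0 (-0.0012) under median centring, and 0 rose without AML 1, AML 2, control 2 or control 3.

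Many mitoribosomal genes start close to another gene on the opposite strand. In the RefSeq windows, 23 of 65 members (35.4%) had a protein-coding start on the opposite strand within 1000 bases upstream, against 8.48% of 17491 coding genes. The median distance was 141 bases. In 20 pairs both genes were measured, and in 13 both differences had the same sign. Differences were above 0 in 71.6% of members and 68.8% of all genes, so unrelated genes often share a sign too. The agreement was not tested. Of the partners 0 rose and 1 fell, Pnpla7, a lysophospholipase gene beside Mrpl41 (-0.72, adjusted p = 0.0187, a call that rested on AML 1, AML 2, control 2 and control 3).

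Mrps12 and Sars2, the mitochondrial seryl-tRNA synthetase gene, start 147 bases apart and stood higher by +0.30 and +0.29 (adjusted p = 0.0566 and 0.0558). Mrpl49 rose by +0.49 while Fau, the gene of cytosolic ribosomal protein S30, 192 bases away, stood at 10.08 ± 0.12 against 10.12 ± 0.15 (adjusted p = 0.774). The members Mrps11 and Mrpl46, 42 bases apart, stood at +0.21 and -0.16 (adjusted p = 0.15 and 0.426). The median difference was +0.14 in members with such a neighbour and +0.12 in the others.

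**Figure D5:**
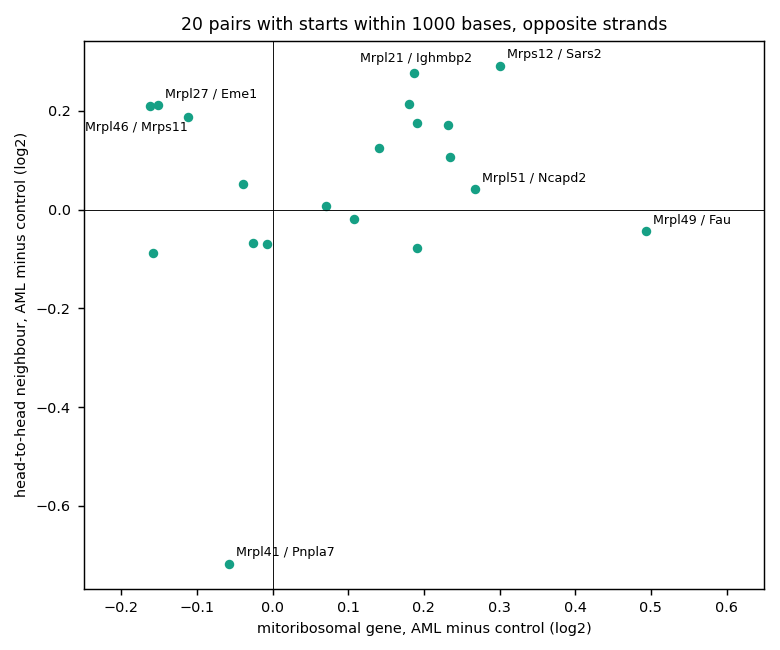
Difference between AML and control (log2) of 20 mitoribosomal genes (x axis) and of the coding gene that starts within 1000 bases on the opposite strand (y axis); each point is a pair. Mrps12 and Sars2 lie together at +0.30 and +0.29, and Mrpl49 lies at +0.49 with Fau at -0.04.

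In bulk samples fewer cells of a type and less RNA per cell cannot be told apart. Of 15 megakaryocyte markers 0 passed, and their values, summed on the linear scale, lay between 13.85 and 14.37 (log2) in AML and 13.89 and 14.28 in control. Differences were above 0 in 13 of the 15 (86.7%, against 68.8% of all genes) and below 0 in 2. Their median was +0.25, and it became +0.0058 without AML 3 and +0.40 without AML 2. Of 13 monocyte and macrophage markers 11 fell and 0 rose, with summed levels of 12.68 to 13.05 in AML and 13.26 to 13.42 in control, and 7 fell without control 2 or control 3. Of 10 granulocyte-monocyte progenitor markers 3 rose and 0 fell (12.47 to 12.67 against 12.01 to 12.38), and 0 rose without control 2. Of 6 erythroid markers 2 fell and of 11 lymphoid markers 4 fell, and neither list held a rise. Summed levels of the 74 mitoribosomal genes ran from 13.32 to 13.46 in AML and from 13.23 to 13.39 in control, and so overlapped. The part of these other cells in the mitoribosomal values was not tested. Of 14 replication and mitosis genes 0 passed.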

How the data were processed

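The authors deposited log2 expression values per transcript cluster, summarized by RMA (version unstated) per the submitters' processing notes. For the array's genome build, the sources used here give none. RMA matches the distributions of the arrays' probe values, which can hide a shift common to most genes. The 30063 genes kept here were still not fully matched. Their array medians were 5.29 to 5.32 in AML and 5.16 to 5.24 in control. Rows with 1 distinct platform symbol were named (30604 of 72688), symbols were updated through RefSeq (GRCm38.p6), and each gene's row with the highest mean was kept. All 30063 genes were fitted with limma (lmFit and eBayes, AML against control, two-sided, Benjamini-Hochberg, threshold 0.05); the fit was tested on simulated data. Named genes were the members past the threshold, filled to 6 in each direction by p, the 5 highest and 3 lowest in level, the 3 with the largest pooled SD, and a list of known roles; Mrpl38, Mrps26, Mrps11 and the neighbour pairs were picked after their values were seen. Members and lists were chosen with earlier results of these data known. Alternatives were other scalings (quantile normalization, median centring, cyclic loess), other fits (array weights, a trend of variance with level, a block for replicate number), level filters at the lower tertile and at the median, averaged rows per gene, identical rows counted once, a 1.5-fold minimum and leaving out each array. limma was version 3.58.1 under R 4.3.3, and tables were handled with pandas 2.3.3 under Python 3.11.15.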

Additional observations from a re-analysis of the deposited data

How the results depend on the processing

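The count of mitoribosomal genes that rose, 5 in the deposited values, was 0 with the replicate number as a block, 19 with array weights, 22 after quantile normalization, 1 after median centring, 16 after cyclic loess, 9 and 10 among genes at or above the lower tertile and the median level, 0 at 1.5-fold or more, and from 0 to 11 when 1 array was left out. Of all genes, 16.1% rose with array weights and 8.18% and 8.25% under the level filters, against 25.7%, 12.2% and 13.7% of the members. The count that fell was 1 after quantile normalization and 1 after cyclic loess. The median difference, +0.14, became +0.24 after quantile normalization (all genes +0.011) and +0.019 after median centring (all genes -0.014), and ran from +0.093 to +0.18 when 1 array was left out. Deviations of same-numbered samples of the 2 groups from their group means had correlations of -0.36, 0.14 and -0.29. The labels do not say whether equal numbers share a day or batch. With 3 arrays a group, these correlations cannot decide it. The block also ended the calls of Mtg1 (limma adjusted p = 0.0543), Clpp, Pars2, Tefm, Timm17a, Myc, Pprc1, Gabpb1 and Pnpla7.

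Some named genes changed sign. Array weights gave +0.054 for Mrps18c, +0.032 for Mrpl39 and +0.012 for Mrpl11. Quantile normalization gave +0.0046 for Mrpl2, +0.12 for Mrps18c, +0.11 for Mrpl39, +0.0027 for Mrpl3, +0.014 for Mrpl11 and +0.031 for Mrpl45. Cyclic loess gave +0.032 for Mrps18c and +0.048 for Mrpl39. Median centring gave -0.00076 for Mrpl24, -0.014 for Mrps27, -0.089 for Mrpl10, -0.039 for Mrpl4, -0.050 for Mrps7 and -0.063 for Mrps18a. With 1 array left out, differences ran from -0.099 to +0.043 for Mrps18c, -0.089 to +0.046 for Mrpl39, -0.010 to +0.063 for Mrpl10, -0.15 to +0.011 for Mrpl3, -0.083 to +0.096 for Mrpl11, -0.11 to +0.018 for Mrpl45 and -0.021 to +0.20 for Mrps18a. The cause was not tested.

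With 3 arrays a group, the median 95% interval of a member, which is not adjusted for the number of genes, reached 0.213 to either side. The smallest difference past the adjusted threshold was +0.30 (Mrps25), and Mrpl12 at +0.34 missed it. Small changes could therefore go uncalled. Mrpl33 and Mrpl35 lay at the level of dim rows.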
